A study of Mus musculus with 104 samples.

Results

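The 5 colony-stimulating factor receptor genes Csf1r, Csf2ra, Csf2rb, Csf2rb2 and Csf3r were followed through 104 mouse RNA-seq libraries of liver macrophages, monocytes, cultured macrophages and liver cells sorted by STAB2. They were taken by gene symbol and not by a rule on measured values, but the choice was made with earlier results of these data known. Each was found in all 8 expression tables, so they are 5 of the 24940 genes listed in every table. The libraries form 47 groups of 2 to 4. Values are TPM (transcript levels) and are scaled for transcript length and for library, so levels of different genes can be set side by side.

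The first experiment followed the refilling of the liver after its resident macrophages, the Kupffer cells, were removed. Repopulating liver macrophages came from Clec4f-cre/Rosa26iDTR mice, in which Clec4f-driven Cre makes Kupffer cells sensitive to diphtheria toxin. They were taken 12, 24, 48, 72, 168 and 336 h after the toxin (2, 3, 2, 2, 3 and 3 libraries). The same strain given PBS supplied 3 Kupffer cell libraries, and C57BL/6J mice without these transgenes supplied 4 libraries of blood Ly6C-high monocytes, so cell type and strain differ together between the last group and the others. A further set of repopulating macrophages, 24 h after the toxin, came from mice labelled C57BL/6J and given LY411575, a gamma-secretase inhibitor that blocks Notch signalling (3 libraries against 2 controls), or antibodies to DLL1 and DLL4, ligands of Notch (4 against 2). Per the file headers the first of these experiments used females and the second males, all of them fasted.

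Kupffer cells were also sorted from Nr1h3 flox/flox mice (2 libraries, TIM4+) and from Nr1h3 flox/flox Clec4f-cre+/- mice (2 TIM4+ and 2 TIM4-), where Nr1h3 codes for the oxysterol receptor LXR alpha. Smad4 flox/flox mice gave 2 libraries and Smad4 flox/flox mice with Clec4f-cre 3 TIM4+ and 2 TIM4- libraries, where Smad4 carries TGF-beta signals to the nucleus. Bone marrow-derived macrophages (BMDMs) came from Nr1h3 WT and KO marrow (7 days of culture), from Smad4 flox/flox and Smad4 KO marrow (4 days, 24 h treatments with TGF-beta, DLL4, DLL4 with the gamma-secretase inhibitor DAPT, or DLL4 with TGF-beta) and from C57BL/6J marrow (4 days with 24 h or 6 days with 72 h treatments, the sterol DMHCA among them). Marrow monocytes of C57BL/6J mice, male per the file headers, were cultured for 2 days and left untreated or given DLL4, desmosterol, DLL4 with TGF-beta, or all 3 for 48 h, and liver cells of C57BL/6J mice were split into STAB2-low, -intermediate and -high fractions. The titles tie the STAB2 fractions to the same pair of identifiers, so they may share mice. These groups held 2 libraries each, and title marks for P and N beside TIM or T4 were read as TIM4+ and TIM4-. Whether the libraries within a group stem from different mice or cultures is not stated in the labels. P-values then measure only the spread between libraries, which may be technical.

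CSF1R is the receptor tyrosine kinase for macrophage colony-stimulating factor (CSF1) and interleukin 34, and Kupffer cells and other tissue macrophages depend on it. CSF2RA is the ligand-specific alpha chain of the receptor for granulocyte-macrophage colony-stimulating factor (GM-CSF), and CSF2RB is the signalling beta chain it shares with the receptors for interleukin 3 and interleukin 5. Mice carry a duplicated beta chain, CSF2RB2, which serves interleukin 3 alone, and CSF3R is the receptor for granulocyte colony-stimulating factor, best known from neutrophils and their precursors.

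In mm10 the deposited annotation places Csf2ra at chr19:61224402-61228418 on the minus strand and Csf3r at chr4:126024659-126044975 on the plus strand. Csf2rb (chr15:78325990-78351001, plus strand) and Csf2rb2 (chr15:78282508-78305721, minus strand) lie 20.3 kb apart. Reads were counted over the exons of 1 transcript per gene, and the intervals above are the whole transcripts from first to last exon.

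The 2 beta-chain genes are near-identical copies, and this limits how surely a read can be given to one of them. Their coding sequences in the GENCODE vM21 transcripts of mouse matched at 95.4% of 2629 aligned bases, the longest run without a difference was 242 bases, and 26.0% of the 50-base windows of the Csf2rb coding sequence also occur in Csf2rb2. The files do not state how reads matching both were handled, so values of these 2 genes are uncertain where reads could be split between them. One 90-base stretch of the coding sequence, bases 308 to 397 of Csf2rb and 311 to 400 of Csf2rb2, shows the places where the copies can be told apart, with its 16 differing bases in capitals:
Csf2rb: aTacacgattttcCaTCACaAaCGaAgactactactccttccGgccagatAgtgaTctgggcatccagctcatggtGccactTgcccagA
Csf2rb2: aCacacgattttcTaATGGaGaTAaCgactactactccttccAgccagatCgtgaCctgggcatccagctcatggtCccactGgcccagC

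The promoters of 2 genes are shown because these genes had the most and the fewest calls of the 5. Csf3r passed the call threshold in 10 of 42 comparisons and Csf2ra in 0 of 42. By comparison 0 to 36.5% of all tested genes were called, and these counts were not set against those of other single genes. PU.1 (Spi1), the ETS factor of the myeloid lineages, binds the core GAGGAA, which was searched on both strands in the 250 bases before each start (RefSeq promoters, GRCm38.p6) and is printed in capitals. The Csf2ra window (chr19:61228419-61228668, minus strand) holds 2 adjoining copies at -14 to -9 and -8 to -3, and the Csf3r window (chr4:126024409-126024658, plus strand) holds 1 at -86 to -81.
Csf2ra: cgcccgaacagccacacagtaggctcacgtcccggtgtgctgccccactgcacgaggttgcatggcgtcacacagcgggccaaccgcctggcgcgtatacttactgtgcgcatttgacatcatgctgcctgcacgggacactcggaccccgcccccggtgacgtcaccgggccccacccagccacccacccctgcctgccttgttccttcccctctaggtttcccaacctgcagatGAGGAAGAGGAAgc
Csf3r: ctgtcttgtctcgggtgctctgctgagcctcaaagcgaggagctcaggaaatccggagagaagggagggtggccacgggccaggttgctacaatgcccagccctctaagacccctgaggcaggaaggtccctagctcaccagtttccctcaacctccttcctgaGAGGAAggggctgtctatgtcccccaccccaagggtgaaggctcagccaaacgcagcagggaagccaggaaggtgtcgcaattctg
The Csf2rb2 window holds 1 copy, on the other strand, at -167 to -162. GAGGAA occurs in 23.3% of 32851 mouse promoter windows of this length and 2 or more copies in 3.5%, while the C/EBP pattern TTGCNNAA, also searched on both strands (9.6% of windows), matched none of the 3 windows.

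Across the 98 macrophage and monocyte libraries, Csf1r ran from 517 to 3350 TPM, Csf2ra from 130 to 564, Csf2rb from 56.6 to 550, Csf2rb2 from 28.2 to 286 and Csf3r from 3.97 to 259. Csf1r (chr18:61105572-61131139 in mm10, plus strand) was the highest of the 5 in all 104 libraries. Csf2ra stood above Csf2rb in 85 of the 98 libraries, Csf2rb above Csf2rb2 in 95, and Csf3r was the lowest of the 5 in 74. STAB2-sorted cells had 8.23 to 14.2 TPM of Csf1r and at most 5.08 TPM of any other receptor. The tables were scaled separately, so levels are set side by side across them and tested within them.

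**Figure D1:**
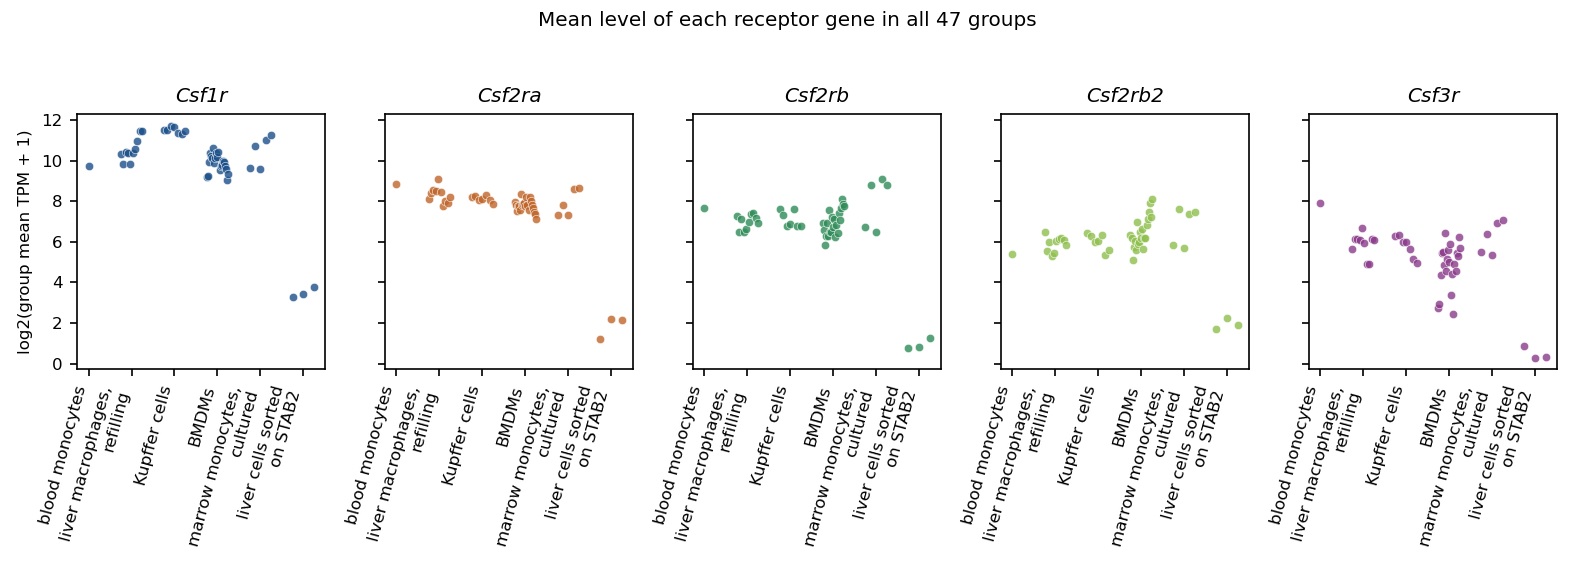
Group means of the 5 receptor genes in TPM on a log axis, over the 47 groups of the 8 tables. Csf1r is the highest member in each group, and the 3 STAB2 groups lie at the bottom for all 5 genes. Outside the STAB2 groups Csf3r spans the widest range on this axis.

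Ordered by group mean, Csf1r was highest in the labelled Nr1h3-deleted TIM4- Kupffer cells (3317 TPM), followed by the other Kupffer cell groups and the macrophages at 168 and 336 h, which spanned 2543 to 3191 TPM. Blood monocytes (839 TPM) stood at place 36 of 47, and the lowest groups outside the STAB2 cells were Nr1h3 WT BMDMs (582 TPM) and C57BL/6J BMDMs after 72 h of DLL4 with TGF-beta (519 TPM). Csf2ra was highest at 12 h (550 TPM) and in blood monocytes (453 TPM), Csf2rb in marrow monocytes given DLL4 with TGF-beta (544 TPM), Csf2rb2 in C57BL/6J BMDMs after 72 h of DLL4, TGF-beta and DMHCA (270 TPM), and Csf3r in blood monocytes (238 TPM). Many neighbours in these orders overlapped in their libraries: 28 of 46 neighbouring pairs for Csf1r, 34 for Csf2ra, 36 for Csf2rb, 31 for Csf2rb2 and 31 for Csf3r. The order is therefore a description, and steps across separately scaled tables were not tested. For Csf1r, control Kupffer cells above WT BMDMs was tested within the Nr1h3 table, as given below.

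A gene was called where its Benjamini-Hochberg adjusted p (limma) was below 0.05 and the groups differed at least 2-fold on log2(TPM + 1), the scale of every log2 difference given here. Over 44 comparisons the members had 214 tests and 20 calls, of which 10 fell to Csf3r, 4 to Csf2rb, 3 to Csf1r, 3 to Csf2rb2 and 0 to Csf2ra. Of the calls, 16 were increases and 4 decreases. The share of all tested genes called ran from 0 to 36.5% by comparison and is given with each.

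Libraries held 7830287 to 27776760 counted reads. The defining markers followed the labels in the main: the summed TPM of 6 Kupffer cell markers was 1.38 to 2.06 in blood monocytes, with Clec4f and Marco at 0, and 12964 to 14197 in PBS Kupffer cells. In cultured BMDMs the Kupffer cell sum stayed at or below 698 TPM, and in STAB2 cells the endothelial markers dominated. The 11 neutrophil and granule markers summed to 2244 to 8854 TPM in all Smad4 and C57BL/6J BMDM groups but the one given DMHCA alone (308 to 322), against 105 to 148 in Nr1h3 BMDMs. Such levels are given beside the Csf3r results below, since neutrophils and their precursors carry that receptor. In a bulk library, fewer cells of a type and less RNA per cell cannot be told apart.

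Between monocytes and Kupffer cells, Csf1r and Csf2rb2 rose and Csf3r fell. Csf1r measured 869, 729, 914 and 843 TPM in the 4 monocyte libraries and 3317, 2751 and 2766 in the 3 Kupffer cell libraries. The groups were far apart, with a log2 difference of 1.81 ± 0.10 (SE, adjusted p = 1.4e-11). Csf3r went the other way, from 259, 250, 224 and 219 TPM in monocytes to 79.5, 79.2 and 73.5 in Kupffer cells (log2 -1.60 ± 0.15, adjusted p = 1.8e-08), again without overlap.

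The interleukin 3 beta chain Csf2rb2 measured 52.0, 46.7, 28.2 and 39.8 TPM in monocytes and 66.9, 93.1 and 96.6 in Kupffer cells. Every Kupffer cell library stood above every monocyte library, and the log2 difference was 1.04 ± 0.16 (adjusted p = 1.5e-05), just past the 2-fold minimum. Without monocyte replicate 3, Kupffer cell replicate 2 or Kupffer cell replicate 3 it was 0.87 to 0.97, and the call ended. The shared beta chain Csf2rb did not follow its copy: 230, 228, 158 and 190 TPM in monocytes and 148, 211 and 229 in Kupffer cells overlapped (log2 -0.05 ± 0.16, adjusted p = 0.8). Csf2ra, the GM-CSF-specific chain, measured 429 to 485 TPM in monocytes and 259 to 350 in Kupffer cells, a log2 difference of -0.66 (adjusted p = 2.2e-05) under the 2-fold minimum. Thus 3 of 5 members were called, where 35.1% of all 11373 tested genes were.

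The 2 beta chains therefore stood in a different proportion to each other. Csf2rb2 per Csf2rb was 0.178 to 0.226 in monocytes, 0.367 to 0.501 at 12 h, 0.499 to 0.56 at 24 h and 0.422 to 0.452 in Kupffer cells. The log2 ratio was 1.10 higher in Kupffer cells than in monocytes, with no overlap of the libraries. An exact two-sided permutation test gave p = 0.0571, the smallest value that the 35 arrangements of 3 and 4 libraries allow.

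**Figure D2:**
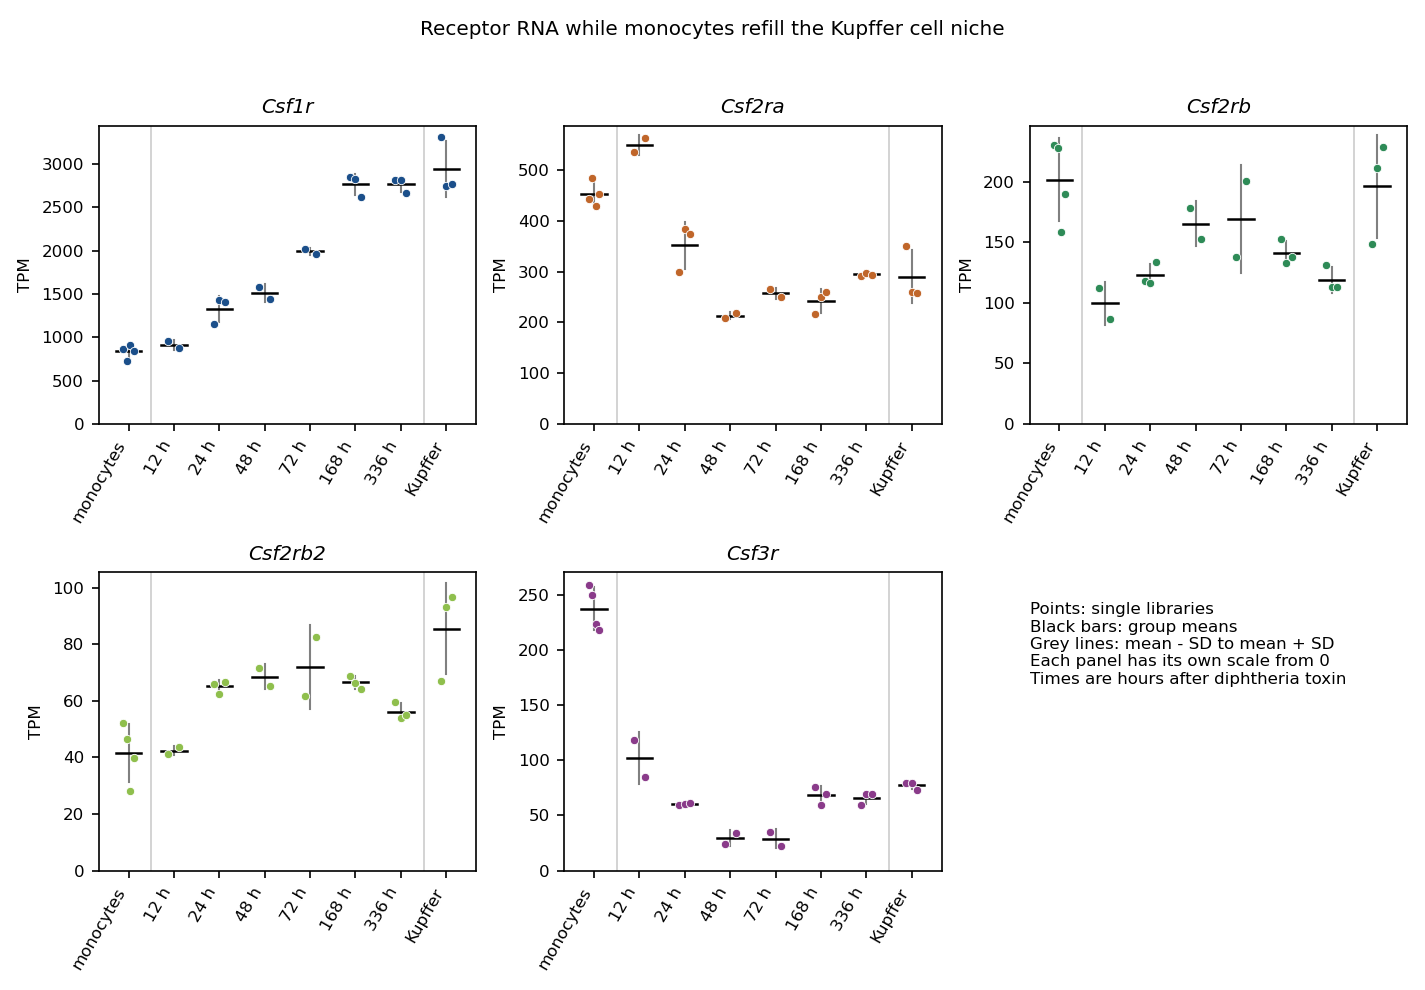
TPM of each receptor gene in the refilling experiment, from blood monocytes through 12 to 336 h after diphtheria toxin to PBS Kupffer cells. Points are libraries, black bars group means and grey lines 1 SD to each side. Csf1r stands at 839 TPM on average in monocytes and 2767 TPM at 168 h, while Csf3r has its lowest levels at 48 and 72 h.

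Step by step, Csf3r and Csf2rb moved first. By 12 h, Csf3r had fallen to 119 and 85.4 TPM (log2 -1.23 ± 0.17 against monocytes, adjusted p = 5.7e-06) and Csf2rb to 112 and 86.9 TPM (log2 -1.01 ± 0.18, adjusted p = 0.00014), each below every monocyte library. Csf1r at 12 h (955 and 871 TPM) and Csf2rb2 (41.2 and 43.5 TPM) lay within or near the monocyte range, and Csf2ra (536 and 564 TPM) stood above it by 0.28 on the log2 scale (adjusted p = 0.049). With 2 of 5 members called, the background was 25.2% of tested genes. The Csf2rb call ended without monocyte replicate 1 or 2 or 12 h replicate 2, under quantile normalization, in limma-voom on recovered reads and with both beta chains added (log2 -0.95 to -0.76), and the Csf3r call ended without 12 h replicate 2 (log2 -0.99).

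Csf1r then stood higher at each later time up to 168 h, in steps that were each under 2-fold. At 24 h its libraries measured 1159, 1432 and 1405 TPM, and at 48 h 1586 and 1442 TPM. The 72 h libraries followed with 2024 and 1963 TPM, those of 168 h with 2848, 2828 and 2626, and those of 336 h with 2812, 2814 and 2670. On the log2 scale the steps from 12 to 24 h (0.54, adjusted p = 0.0026) and from 72 to 168 h (0.47, adjusted p = 0.0049) passed the test, and those from 24 to 48 h (0.19, adjusted p = 0.33) and from 48 to 72 h (0.40, adjusted p = 0.11) did not. By 336 h the libraries overlapped those of PBS Kupffer cells (log2 -0.09 ± 0.10, adjusted p = 0.6).

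Csf3r reached its lowest point in the middle of refilling. From 59.3, 60.1 and 61.7 TPM at 24 h it fell to 24.1 and 34.3 at 48 h (log2 -1.04 ± 0.17, adjusted p = 0.00046), measured 35.4 and 22.7 at 72 h, and rose to 75.9, 59.2 and 69.5 at 168 h (log2 1.23 ± 0.17, adjusted p = 4.9e-05). The 48 and 72 h libraries lay below all libraries of 24 and 168 h. Without 48 h replicate 1 the first step was -0.80, and without 72 h replicate 2 the second was 0.92, which ended those calls. The neutrophil and granule markers summed to 111 to 540 TPM at 24 h, 156 to 186 at 48 h, 22.9 to 95.9 at 72 h and 12.3 to 15.9 at 168 h. Their part in the Csf3r result was not tested.

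Csf2ra stood below its 12 h level with 299, 384 and 374 TPM at 24 h and 208 and 219 at 48 h. These steps of -0.65 (adjusted p = 0.0011) and -0.71 (adjusted p = 0.0008) on the log2 scale were each under 2-fold, and later groups lay between 216 and 297 TPM. The beta chains were still below Kupffer cell level at 336 h: Csf2rb measured 131, 113 and 113 TPM (log2 -0.69 ± 0.17, adjusted p = 0.0095) and Csf2rb2 59.6, 53.8 and 55.1 TPM (log2 -0.58 ± 0.17, adjusted p = 0.023). All 3 libraries at 336 h stood below all 3 Kupffer cell libraries for both genes, under the 2-fold minimum. The calls by step were 0 of 5 members from 12 to 24 h (6.16% of tested genes), 1 from 24 to 48 h (4.26%), 0 from 48 to 72 h (0.422%), 1 from 72 to 168 h (8.15%), 0 from 168 to 336 h (0.0703%) and 0 between 336 h and Kupffer cells (3.82%).

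Over these 8 group means, the genes most like each receptor were found by Pearson correlation of log2(TPM + 1) among 7066 genes, as a description of shared libraries and without a test. Slc38a6 (r = 0.998) and Enpp4 (r = 0.996) were nearest to Csf1r, and across the 10 Smad4 BMDM groups the same pairs gave 0.88 and 0.836. Tsc22d2 (r = 0.983) and Gpcpd1 (r = 0.98) were nearest to Csf3r and gave 0.842 and 0.916 in the BMDM groups. The third gene of Csf3r, Rybp, went from 0.979 to -0.735. For Csf2ra the nearest, Tns3, gave 0.969 and -0.184 and the third, Ubl3, 0.956 and 0.919. For Csf2rb the nearest, Zfand4, gave 0.965 and -0.883 and the third, Mxi1, 0.94 and 0.827, and for Csf2rb2 Pgm2 gave 0.988 and -0.86. Among the members themselves, Csf2rb and Csf2rb2 correlated at 0.32 in refilling and 0.97 in the BMDMs, and Csf1r and Csf3r at -0.46 and 0.97.

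The other genes of the pathway were taken from lists of ligands, receptor partners, kinases related to CSF1R, signalling proteins, transcription factors and GM-CSF-responsive genes. Of the 23 signalling genes tested between Kupffer cells and monocytes, 2 were higher and 10 lower, where 35.1% of all tested genes were called (median log2 -0.751, against -0.055 over all tested genes). Socs2 rose (3.05 ± 0.25) while Socs3 (-3.28 ± 0.31), both feedback inhibitors of cytokine receptors, and the phosphoinositide 3-kinase subunit Pik3cg (-2.44 ± 0.10) fell. Among the listed transcription factors the macrophage factor Maf rose (2.67 ± 0.18), and was already up at 12 h (3.24 ± 0.20). Of the 8 GM-CSF-responsive genes, 6 were higher and 1 lower at 12 h against monocytes, where 25.2% of all tested genes were called (median 2.63), led by Itgax (4.25 ± 0.33) and by Irf4, which fell (-4.17 ± 0.36).

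Ligand RNA was scarce in these cells. Csf1 measured 1.37 to 5.47 TPM in monocytes and 6.11 and 13.4 TPM at 12 h (log2 1.43 ± 0.32, adjusted p = 0.00094), and 2.52 to 3.09 TPM in Kupffer cells. Csf1 was the only one of 6 listed ligands to pass the filter on low values. The interleukin 3 alpha chain Il3ra measured 24.0 to 34.8 TPM in monocytes and 12.5 to 17.9 in Kupffer cells (log2 -0.88 ± 0.15, adjusted p = 3.5e-05, under the 2-fold minimum). Of the kinases related to CSF1R, Flt3, the receptor of dendritic cell and progenitor growth, fell (-2.83 ± 0.47) and Kit rose (2.05 ± 0.27).

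Control Kupffer cells and WT BMDMs of the Nr1h3 table differed by 2-fold or more in Csf1r and Csf3r. TIM4+ Kupffer cells of Nr1h3 flox/flox mice had 2884 and 2976 TPM of Csf1r, and Nr1h3 WT BMDMs had 595.8 and 567.4 (log2 2.33 ± 0.05, adjusted p = 2e-09). Csf3r stood at 80.8 and 78.1 TPM against 6.04 and 5.27 (log2 3.60 ± 0.08, adjusted p = 1.4e-09). The libraries of the groups did not overlap for either gene. The neutrophil and granule markers summed to 6.90 to 12.8 TPM in the Kupffer cells and 131 to 148 in the BMDMs, and their part was not tested. These BMDMs were among the lowest groups for Csf3r (mean 5.65 TPM), while Smad4 flox/flox BMDMs with DLL4 and TGF-beta reached 85.5 TPM in their own table. The GM-CSF and interleukin 3 chains were close: Csf2rb differed by 0.39 (adjusted p = 0.00025), Csf2ra by 0.30 (adjusted p = 0.015) and Csf2rb2 by -0.06 (adjusted p = 0.28) on the log2 scale. Thus 2 of 5 members were called, beside 36.5% of tested genes. Il3ra was lower in Kupffer cells (log2 -1.99 ± 0.11), and of 23 signalling genes 7 were higher and 2 lower.

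In the Nr1h3 experiment the targeted gene itself measured 393 to 409 TPM in control Kupffer cells, 391 to 422 in the TIM4+ and 341 to 395 in the TIM4- cells labelled Nr1h3 flox/flox Clec4f-cre+/-. A sum over all exons does not reveal the loss of some of them, so these values do not check the deletion. In BMDMs Nr1h3 was 41.9 to 43.3 TPM in WT and 8.05 to 8.81 in KO. Kupffer cell markers summed to 16455 to 16488 TPM in control cells and to 7429 to 8065 in the labelled TIM4+ deleted cells.

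No receptor changed 2-fold with Nr1h3. The largest difference was in the shared beta chain: Csf2rb measured 160.5 and 159.02 TPM in control Kupffer cells and 110 and 123 in labelled Nr1h3-deleted TIM4+ cells (log2 -0.46 ± 0.06, adjusted p = 0.001). Csf3r (80.8 and 78.1 against 61.2 and 64.9 TPM, adjusted p = 0.02) and Csf2rb2 (77.0 and 75.7 against 62.5 and 65.7 TPM, adjusted p = 0.011) also stood lower without overlap, and Csf1r did not differ detectably (log2 0.12 ± 0.05, adjusted p = 0.14). The median over all tested genes was 0.103 in this comparison. In BMDMs Csf2rb alone had an adjusted p below 0.05: 121 and 123 TPM in WT and 96.1 and 93.8 in KO (log2 -0.36 ± 0.06, adjusted p = 0.024). The calls were 0 of 5 members in TIM4+ cells against control (2.86% of tested genes), 0 between TIM4- and TIM4+ cells (0.597%) and 0 in BMDMs (0.417%). The transcription factor Egr1 fell between labelled TIM4+ deleted and control Kupffer cells (-1.06 ± 0.18).

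Among STAB2-sorted liver cells only Csf1r and Csf2rb2 passed the filter on low values. Csf1r measured 9.09 and 8.23 TPM in the low, 10.4 and 8.94 in the intermediate and 14.2 and 11.1 in the high fraction, and no difference passed the test (low against high, log2 -0.49 ± 0.18, adjusted p = 0.095; intermediate against high, -0.35 ± 0.18, adjusted p = 0.68). Calls were 0 of 2 members in both comparisons, beside 13.6% and 0.00946% of tested genes. The cells carried endothelial markers (summed TPM 4389 to 13199) and the pan-macrophage and leukocyte markers at 78 to 113 TPM. Their group means were 142 to 245 TPM for Kit and 35.3 to 66.0 TPM for Csf1. The low fraction carries another library string in its labels than the other 2, which cannot be told apart from STAB2.

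Smad4 deletion in Kupffer cells went with less Csf2rb2. Smad4 itself measured 33.4 and 35.7 TPM in control cells and 13.7 to 21.5 in the 5 deleted libraries. Csf2rb2 measured 83.7 and 76.0 TPM in controls, 42.0, 38.5 and 38.9 in Smad4-deleted TIM4+ cells and 49.7 and 44.2 in Smad4-deleted TIM4- cells. All 5 deleted libraries stood below both controls, with log2 differences of -0.99 ± 0.11 (adjusted p = 0.012) and -0.75 ± 0.12 (adjusted p = 0.031), the first just under the 2-fold minimum. It passed the minimum with a pseudocount of 0.25 (-1.001) and without TIM4+ replicate 1 (-1.03). The TIM4+ difference no longer passed the test without either control library or TIM4+ replicate 3 (adjusted p up to 0.113), nor the TIM4- difference without any of these or either TIM4- library (up to 0.169).

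Csf2rb showed the same order with more spread: 182 and 202 TPM in controls, 130, 89.2 and 104 in TIM4+ and 131 and 89.6 in TIM4- deleted cells (log2 -0.84 ± 0.21, adjusted p = 0.14, and -0.82 ± 0.23, adjusted p = 0.15). Csf1r overlapped between the 3 groups, at 2474 to 2918 TPM, and Csf2ra and Csf3r did not pass the test. Nor did the interleukin 3 alpha chain Il3ra, at -1.09 ± 0.36 in TIM4+ (adjusted p = 0.25) and -0.75 ± 0.40 in TIM4- cells (adjusted p = 0.43). No member was called in TIM4+ cells (0 of 5, background 0.965%), in TIM4- cells (0 of 5, 1.62%) or between them (0 of 5, 0.0503%). Kupffer cell markers summed to 15074 to 15551 TPM in controls, 7679 to 10428 in TIM4+ and 3610 to 5399 in TIM4- deleted cells, and their part in the result was not tested. A TIM4+ and a TIM4- library carry the same identifier in their titles and may share a mouse.

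With the Notch ligand DLL4, both beta chains and Csf1r rose in marrow monocytes. Csf2rb measured 109 and 103 TPM untreated and 448 and 430 with DLL4 (log2 2.04 ± 0.04, adjusted p = 6.1e-11), and Csf2rb2 56.7 and 54.0 against 198 and 188 (log2 1.78 ± 0.04, adjusted p = 4.9e-10). Csf1r rose from 816 and 784 to 1653 and 1660 TPM (log2 1.05 ± 0.03, adjusted p = 1.1e-09), a call that quantile normalization ended (0.89). Csf3r (47.7 and 40.5 against 84.3 and 80.7 TPM, log2 0.89, adjusted p = 1.3e-06) stayed under the 2-fold minimum and passed it without untreated replicate 1 (1.01), and Csf2ra differed by 0.51 (adjusted p = 1e-06). All 5 had an adjusted p below 0.05, as did 72.6% of tested genes, and 3 were called, beside 19.5% of tested genes. The granule markers summed to 611 to 637 TPM untreated and 158 to 173 with DLL4, and their part in the Csf3r result was not tested.

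Other genes of the pathway moved in the same libraries. Of 23 signalling genes 9 were higher and 2 lower (median 0.664, against -0.045 over all tested genes), Socs1 (2.41 ± 0.14) and Socs2 (2.39 ± 0.12) among the higher and the Src family kinase Fyn (-2.21 ± 0.08) among the lower. The transcription factor Irf8 rose (1.55 ± 0.04), as did Itgax (6.53 ± 0.15) and Batf3 (3.64 ± 0.11), genes used as dendritic cell markers. Dendritic cell markers summed to 48.6 to 50.0 TPM with DLL4 and 4.36 to 5.80 untreated, and their part in the receptor result was not tested.

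In Smad4 BMDMs of both genotypes, Csf3r rose with DLL4 at 24 h and Csf2rb stood higher, past the 2-fold minimum in flox/flox cells. In Smad4 flox/flox BMDMs after 24 h, Csf2rb rose from 57.1 and 56.6 to 118 and 126 TPM (log2 1.08 ± 0.11, adjusted p = 2.8e-06) and Csf3r from 21.0 and 18.7 to 40.4 and 47.1 TPM (log2 1.10 ± 0.17, adjusted p = 0.00014), a call that ended without DLL4 replicate 2 (0.99). Csf2rb2 went from 34.7 and 33.0 to 63.0 and 65.0 TPM, under the minimum by a little (log2 0.90 ± 0.11, adjusted p = 3.1e-05). All 5 members had an adjusted p below 0.05, as did 45% of tested genes, and 2 of 5 were called, beside 4.06% of tested genes. Smad4 KO BMDMs, with 8.52 to 11.3 TPM of Smad4 against 20.4 to 26.5 in controls, gave 1 call of 5, again Csf3r (22.3 and 22.2 against 47.1 and 46.6 TPM, log2 1.04 ± 0.17, adjusted p = 0.00023; background 3.39%), with Csf2rb at 0.74 (adjusted p = 9.8e-05). The difference between the 2 genotypes in the DLL4 response was called for 0 of 5 members and for 0% of tested genes in limma (adjusted p of the members 0.53 to 0.98), where 843 genes had an unadjusted p below 0.05, and for 1 gene in limma-voom.

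DAPT, which blocks the cleavage of Notch receptors, went with Csf2rb and Csf3r levels between those of untreated and DLL4-treated cells. Csf2rb with DLL4 and DAPT was 77.1 and 74.0 TPM (log2 -0.68 ± 0.11 against DLL4 alone, adjusted p = 0.00035), and Csf3r was 27.6 and 29.2 TPM (log2 -0.60 ± 0.17, adjusted p = 0.015). In Smad4 KO BMDMs the differences were -0.50 (adjusted p = 0.0032) and -0.59 (adjusted p = 0.017). No member reached 2-fold in control cells (0 of 5, background 2.09%) or in KO cells (0 of 5, 1.82%).

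**Figure D3:**
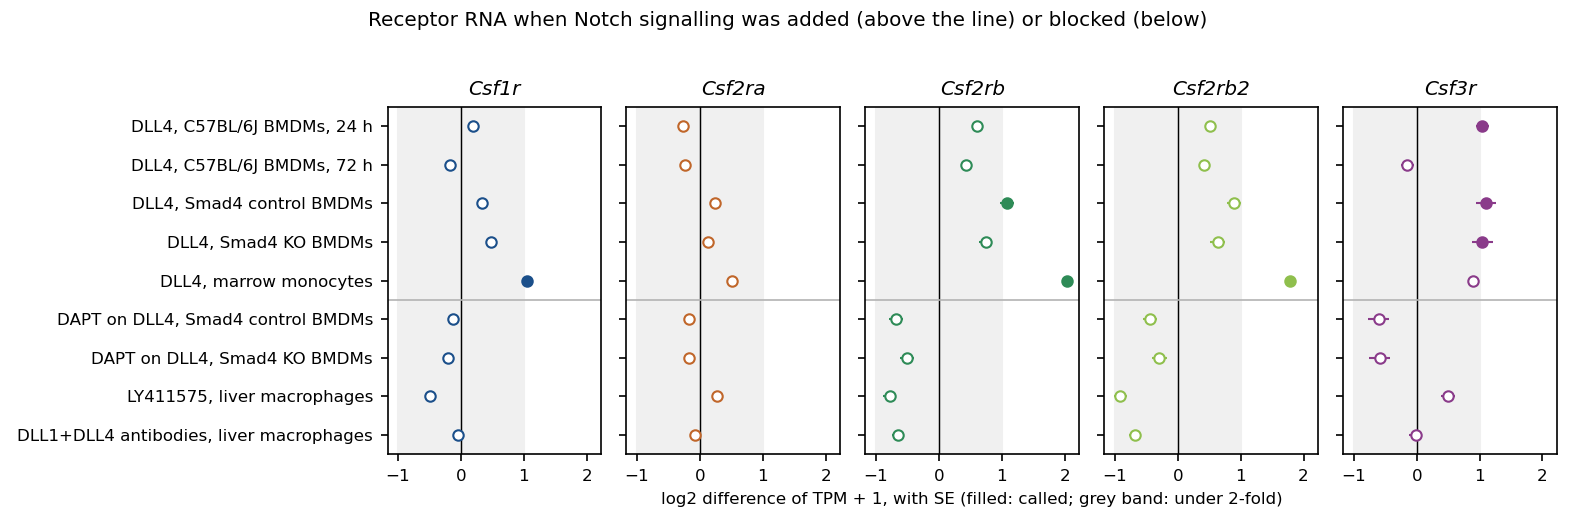
Log2 differences of the 5 receptors, with SE, where a Notch signal was added (DLL4 in BMDMs and marrow monocytes) or blocked (DAPT, LY411575, antibodies to DLL1 and DLL4). Both beta chains lie above 0 in each DLL4 comparison and below 0 in each blocking comparison. Csf1r departs from this only with DLL4 at 72 h, and Csf2ra and Csf3r depart from it both with DLL4 and with Notch blocked.

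With Notch blocked in the liver, 24 h after the toxin, both beta chains stood lower, under 2-fold and without overlap. LY411575 controls had 146 and 158 TPM of Csf2rb and treated mice 91.0, 88.5 and 84.9 (log2 -0.78 ± 0.10, adjusted p = 0.0002). Csf2rb2 measured 87.1 and 86.7 against 43.8, 50.2 and 43.5 TPM (log2 -0.91 ± 0.10, adjusted p = 5.3e-05). With the DLL1 and DLL4 antibodies Csf2rb was 157 and 123 TPM in controls and 80.3, 90.6, 86.3 and 96.4 in treated mice (log2 -0.65 ± 0.10, adjusted p = 0.0015), and Csf2rb2 69.7 and 56.0 against 37.6, 38.5, 36.3 and 41.4 TPM (log2 -0.69 ± 0.10, adjusted p = 0.00094). The 2 responses of the beta chains did not differ by test (adjusted p = 0.65 for Csf2rb and 0.35 for Csf2rb2), with the difference of responses at -0.13 ± 0.14 and -0.22 ± 0.14.

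For the other receptors the 2 experiments parted. Csf1r was 1281 and 1300 TPM in LY411575 controls and 950, 924 and 885 in treated mice (log2 -0.49 ± 0.06, adjusted p = 0.00015), but 1404 and 1372 against 1366, 1407, 1390 and 1217 TPM with antibodies (log2 -0.05 ± 0.06, adjusted p = 0.67). Csf3r was 46.9 and 51.0 against 67.9, 72.8 and 67.3 TPM with LY411575 (log2 0.49 ± 0.11, adjusted p = 0.0061) and overlapped with antibodies (log2 -0.01 ± 0.10, adjusted p = 0.95). The differences of responses were -0.44 ± 0.09 for Csf1r (adjusted p = 0.0068), 0.51 ± 0.15 for Csf3r (adjusted p = 0.049) and 0.36 ± 0.10 for Csf2ra (adjusted p = 0.036), under the 2-fold minimum. The adjusted p of the last went above 0.05 with 7 of the 11 libraries left out in turn (up to 0.117) and that of Csf3r with 9 of 11 (up to 0.18). The agent and the sex of the mice cannot be told apart here. Calls were 0 of 5 members with LY411575 (6.38%), 0 of 5 with antibodies (2.07%) and 0 of 5 for the difference (5.38%).

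Markers of maturation moved with LY411575. Kupffer cell markers summed to 106.04 to 113.6 TPM in its controls and 12.9 to 17.4 in treated mice, classical monocyte markers to 1383 to 1397 and 3198 to 3433, and neutrophil and granule markers to 47.7 to 77.6 and 119 to 136. With the antibodies the corresponding ranges were 29.7 to 31.0 and 36.0 to 55.5, 1212 to 1900 and 1419 to 2246, and 42.0 to 43.8 and 25.1 to 71.2 TPM. Their part in the receptor results was not tested. The GM-CSF-responsive genes did not move together. Itgax fell in both experiments (-4.00 ± 0.28 and -2.46 ± 0.27) and Batf3 too (-1.54 ± 0.24 and -1.03 ± 0.23). With LY411575, Cd9 (2.20 ± 0.13) and Bhlhe40 (1.45 ± 0.23) rose, and with the antibodies neither was called (-0.33 ± 0.12 and -0.58 ± 0.22).

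With TGF-beta added to DLL4, all 5 receptors stood higher in Smad4 flox/flox BMDMs, each under 2-fold. For 4 of them the difference was smaller without Smad4 by the test of the 2 responses (adjusted p below 0.05). By that test 16.9% of all tested genes differed, in either direction. In control cells Csf2rb2 went from 63.0 and 65.0 to 123 and 123 TPM (log2 0.93 ± 0.11, adjusted p = 1.2e-05), Csf3r from 40.4 and 47.1 to 84.2 and 86.7 (log2 0.95 ± 0.17, adjusted p = 0.00031) and Csf2rb from 118 and 126 to 192 and 185 (log2 0.63 ± 0.11, adjusted p = 0.00027). Csf2ra (207 and 219 to 342 and 318 TPM) differed by 0.63 and Csf1r (1198 and 1222 to 1542 and 1558 TPM) by 0.36. All 5 had an adjusted p below 0.05, as did 45.9% of tested genes, and 0 of 5 passed the 2-fold minimum (background 6.66%). Under quantile normalization Csf2rb2 passed it (1.02), as did Csf3r without DLL4 replicate 2 (1.06).

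In Smad4 KO cells the same addition took Csf2rb from 151.4 and 142.8 to 141 and 139 TPM (log2 -0.07 ± 0.11, adjusted p = 0.74) and Csf2rb2 from 90.9 and 87.8 to 96.6 and 98.1 TPM (log2 0.12 ± 0.11, adjusted p = 0.57). The difference between genotypes was -0.81 ± 0.16 for Csf2rb2 (adjusted p = 0.0036), -0.70 ± 0.15 for Csf2rb (adjusted p = 0.0061), -0.34 ± 0.08 for Csf2ra (adjusted p = 0.011, and 0.055 without control DLL4 replicate 1) and -0.30 ± 0.06 for Csf1r (adjusted p = 0.0048). For Csf3r it was -0.64 ± 0.23 (adjusted p = 0.077). Calls were 0 of 5 in KO cells (0.799%) and 0 of 5 for the difference (2.23%), in which Egr2 (1.55 ± 0.22), Cebpb (1.25 ± 0.17) and Maf (1.08 ± 0.11) were the called transcription factors.

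TGF-beta alone gave 1 call of 5 in control cells (background 4.17%): Csf3r measured 21.0 and 18.7 TPM untreated and 31.6 and 54.0 with TGF-beta (log2 1.03 ± 0.17, adjusted p = 0.00024). Its 2 treated libraries were far apart, and the call ended without untreated replicate 2 (0.95) or TGF-beta replicate 2 (0.65). The KO cells gave 0 of 5 (0.545%), and for the difference 0 of 5 were called (1.2%), with -0.23 ± 0.06 for Csf1r (adjusted p = 0.042, over 0.05 with any of 15 of the 20 libraries left out, up to 0.184). Untreated, KO cells held more of the beta chains than controls: Csf2rb 91.1 and 84.0 against 57.1 and 56.6 TPM (log2 0.61 ± 0.11, adjusted p = 0.0014) and Csf2rb2 60.4 and 54.4 against 34.7 and 33.0 TPM (log2 0.74 ± 0.11, adjusted p = 0.00053), without overlap and with 0 of 5 called (1.13%). That sign is opposite to the one in Smad4-deleted Kupffer cells.

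**Figure D4:**
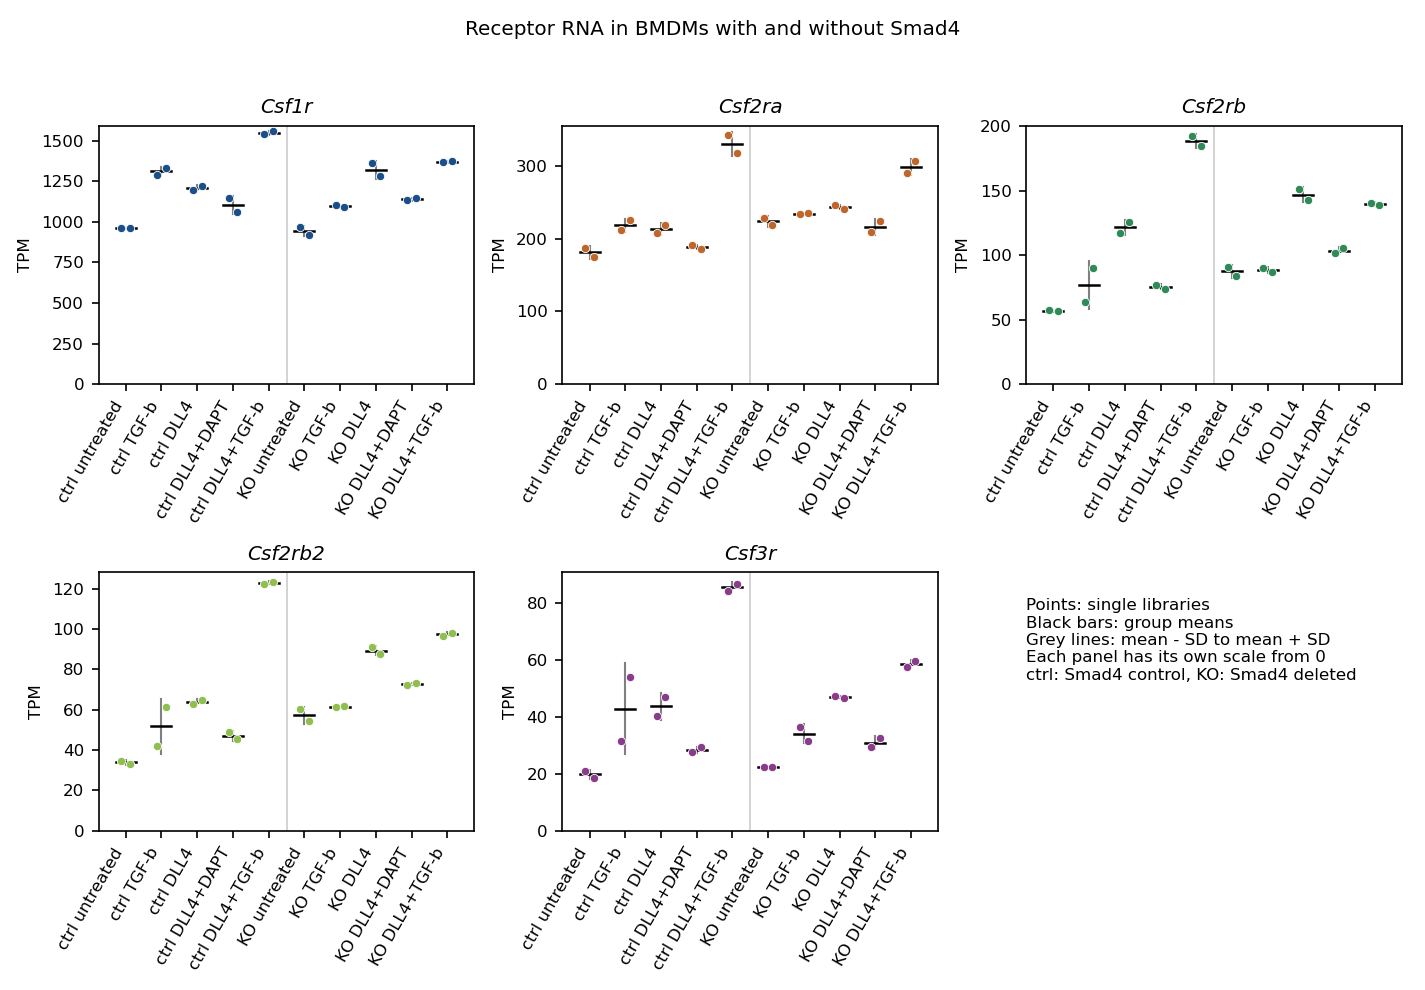
TPM of each receptor in Smad4 control and Smad4 KO BMDMs after 24 h, untreated or with TGF-beta, DLL4, DLL4 with DAPT, or DLL4 with TGF-beta. Points are libraries, bars means, lines 1 SD to each side. All 5 genes are highest with DLL4 and TGF-beta in control cells, where Csf2rb2 reaches 123 TPM against 98.1 TPM or less in KO cells.

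In control cells the granule genes and Csf3r were both lowest untreated and highest with DLL4 and TGF-beta. The 11 neutrophil and granule markers summed to 4977 to 5174 TPM in untreated control BMDMs, 5499 to 7226 with TGF-beta, 6174 to 7368 with DLL4, 5229 to 5890 with DLL4 and DAPT and 8202 to 8854 with DLL4 and TGF-beta. In KO cells the sums were 2836 to 3031 untreated, 3149 to 3759 with DLL4 and 3988 to 4266 with DLL4 and TGF-beta. Their part in the Csf3r results was not tested. Untreated, Csf3r measured 22.3 and 22.2 TPM in KO cells and 21.0 and 18.7 in control cells, and the granule sum was lower in KO cells. With DLL4 the granule sum was again lower in KO cells, and Csf3r averaged 46.9 TPM there and 43.7 in control cells. With DLL4 and TGF-beta both were lower in KO cells, where Csf3r averaged 58.4 TPM against 85.5 in control cells.

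C57BL/6J BMDMs gave the same DLL4 result at 24 h for Csf3r. It rose from 9.22 and 9.40 to 20.3 and 20.3 TPM (log2 1.05 ± 0.11, adjusted p = 9.9e-06). Csf2rb went from 79.3 and 70.3 to 112 and 116 TPM (log2 0.60 ± 0.06, adjusted p = 8.2e-06) and Csf2rb2 from 53.2 and 45.9 to 69.3 and 72.0 TPM (log2 0.51 ± 0.08, adjusted p = 0.00024), both without overlap. Granule markers summed to 2265 to 2791 TPM untreated and 2757 to 2839 with DLL4. Csf2ra stood lower with DLL4 (log2 -0.26 ± 0.06, adjusted p = 0.0063), where in Smad4 flox/flox BMDMs it stood higher (0.23 ± 0.06, adjusted p = 0.0044). The count was 1 of 5, beside 2.75% of tested genes.

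The beta chains and Csf3r rose with time in culture, by larger log2 differences than any single treatment gave in these cells. Untreated libraries labelled 72 h (6 days of culture) had, against those of 24 h (4 days), 203 and 204 against 79.3 and 70.3 TPM of Csf2rb (log2 1.43 ± 0.06, adjusted p = 3.7e-10), 175 and 180 against 53.2 and 45.9 TPM of Csf2rb2 (log2 1.82 ± 0.08, adjusted p = 2.8e-10) and 42.7 and 43.3 against 9.22 and 9.40 TPM of Csf3r (log2 2.09 ± 0.11, adjusted p = 2.2e-09). These 3 of 5 members were called, beside 13.8% of tested genes, whose median was -0.206. Csf1r (855 and 855 against 763 and 737 TPM) and Csf2ra (208 and 200 against 232 and 213 TPM) stayed within 0.19 on the log2 scale. The ligand Csf1 rose 4.04 ± 0.13 on the log2 scale, while 0 of 22 signalling genes were called. Granule markers summed to 4645 to 4779 TPM at 72 h, and the stellate and fibroblast markers to 58 to 62 TPM against about 7 at 24 h, and their part was not tested.

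**Figure D5:**
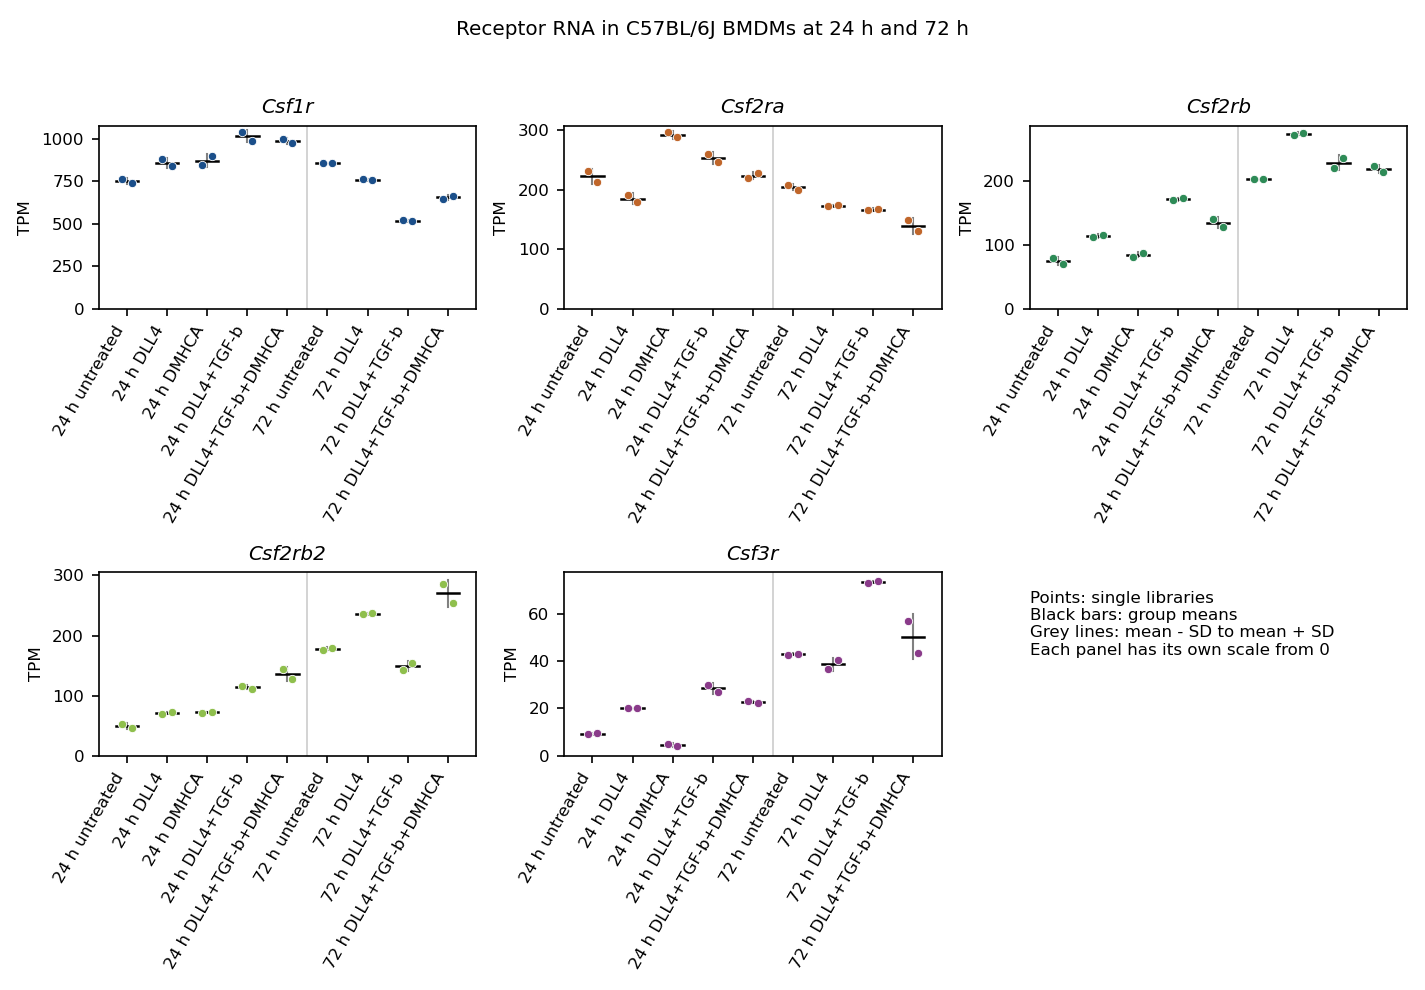
TPM of each receptor in C57BL/6J BMDMs at 24 h and 72 h by treatment. Points are libraries, bars means, lines 1 SD to each side. Csf2rb, Csf2rb2 and Csf3r stand higher at 72 h, and at 72 h with DLL4 and TGF-beta Csf1r is at its lowest (517 and 521 TPM) while DMHCA brings Csf2rb2 to its highest (254 and 286 TPM).

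Some DLL4 and TGF-beta responses differed between the 2 times, by tests chosen after the data were seen. DLL4 left Csf3r at 36.9 and 40.7 TPM at 72 h (log2 -0.15 ± 0.11, adjusted p = 0.43; 0 of 5 members called, 1.73%), and the difference between times was -1.19 ± 0.15 (adjusted p = 0.00025; 1 of 5 called, 1.67%). The beta chains still stood higher with DLL4 at 72 h, Csf2rb by 0.43 ± 0.06 (adjusted p = 0.00031) and Csf2rb2 by 0.41 ± 0.08 (adjusted p = 0.0021). Their DLL4 responses did not differ between times by test (adjusted p = 0.24 and 0.67). TGF-beta added to DLL4 went with more Csf2rb2 at 24 h (69.3 and 72.0 to 117 and 111 TPM, log2 0.68 ± 0.08, adjusted p = 1.3e-05) and with less at 72 h (236 and 238 to 143 and 155 TPM, log2 -0.67 ± 0.08, adjusted p = 1.4e-05). That difference between times was called (-1.35 ± 0.11, adjusted p = 2.3e-06), the one call of 5 members in that test (5.26%).

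Csf1r followed the same turn at a smaller size, from 0.24 (adjusted p = 0.00068) at 24 h to -0.55 ± 0.04 (adjusted p = 3.9e-07) at 72 h, where it went from 761 and 757 to 521 and 517 TPM. Csf3r did not turn: at 72 h it went from 36.9 and 40.7 to 73.3 and 74.2 TPM (log2 0.91 ± 0.11, adjusted p = 2.2e-05). Csf1 itself rose at 72 h with TGF-beta (1.36 ± 0.13), when its receptor stood lower. No member passed the 2-fold minimum in either TGF-beta comparison (0 of 5 at 24 h, 3.8%; 0 of 5 at 72 h, 5.65%). At 72 h the median over all tested genes was 0.11, the granule sum was 7544 to 7561 TPM with TGF-beta against 5831 to 5952 without, and stellate and fibroblast markers reached 186 to 198 TPM.

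DMHCA, a synthetic sterol that acts on LXR, split the 2 beta chains. With DLL4 and TGF-beta at 72 h, Csf2rb2 went from 143 and 155 to 286 and 254 TPM (log2 0.85 ± 0.08, adjusted p = 2.4e-06), while Csf2rb stayed at 221 and 237 against 223 and 215 TPM (log2 -0.06 ± 0.06, adjusted p = 0.49). Csf2rb2 per Csf2rb was 0.649 to 0.651 without and 1.18 to 1.28 with DMHCA, and at 24 h 0.642 to 0.685 and 0.993 to 1.02, so these were groups in which the interleukin 3 beta chain matched or passed its copy. Without DLL4 and TGF-beta at 24 h the ratio was 0.653 to 0.671 untreated and 0.833 to 0.866 with DMHCA.

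Csf3r was lower with DMHCA alone at 24 h, at 4.94 and 3.97 against 9.22 and 9.40 TPM (log2 -0.92 ± 0.11, adjusted p = 1.6e-05), and it passed the 2-fold minimum with a pseudocount of 0.25, in limma-voom and without DMHCA replicate 1 (-1.07 to -1.03). The granule markers summed to 308 to 322 TPM in these libraries against 2265 to 2791 untreated, and their part was not tested. Calls were 0 of 5 for DMHCA alone at 24 h (5.43%), 0 of 5 on DLL4 and TGF-beta at 24 h (1.23%), 0 of 5 at 72 h (5.21%) and 0 of 5 for the difference between times (3.47%). Of 7 GM-CSF-responsive genes tested at 72 h, 4 fell with DMHCA, among them Ccl22 (-3.00 ± 0.30) and Irf4 (-1.74 ± 0.20), and Csf1 fell too (-1.01 ± 0.13).

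Marrow monocytes given TGF-beta on top of DLL4 had 384 and 401 TPM of Csf2ra against 221 and 226 with DLL4 alone (log2 0.81 ± 0.04, adjusted p = 1e-07). Csf1r went from 1653 and 1660 to 2081 and 2090 TPM (log2 0.33 ± 0.03, adjusted p = 1e-05) and Csf3r from 84.3 and 80.7 to 121 and 122 TPM (log2 0.56 ± 0.07, adjusted p = 8.4e-05). The beta chains parted, Csf2rb from 448 and 430 to 550 and 537 TPM (log2 0.31 ± 0.04, adjusted p = 7.1e-05) and Csf2rb2 from 198 and 188 to 166 and 165 TPM (log2 -0.22 ± 0.04, adjusted p = 0.0024). All 5 had an adjusted p below 0.05, as did 51.6% of tested genes, and 0 of 5 reached 2-fold (background 8.81%, median -0.103). The ligand Csf1 rose (1.50 ± 0.17) and the transcription factors Cebpb (-2.10 ± 0.08) and Maf (-1.94 ± 0.07) fell.

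Desmosterol, a cholesterol precursor that binds LXR, left small differences. Alone it went with 89.0 and 88.7 against 109 and 103 TPM of Csf2rb (log2 -0.25 ± 0.04, adjusted p = 0.0046). On DLL4 and TGF-beta, Csf2rb stood at 442 and 448 against 550 and 537 TPM (log2 -0.29 ± 0.04, adjusted p = 0.0023) and Csf1r at 2451 and 2437 against 2081 and 2090 TPM (log2 0.23 ± 0.03, adjusted p = 0.0025). No member was called in either comparison (0 of 5, background 0.244%, and 0 of 5, 0.205%).

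Several labels disagree with other parts of the deposit, and titles were followed. BMDMs with 72 h in their titles are labelled with 24 h of DLL4, the control libraries of the Notch-blocking experiments carry the label of the drug or antibody, the labels of Smad4 KO BMDMs name Clec4f-cre but the design text LysM-cre, and the Notch-blocking mice are labelled C57BL/6J where the design names Clec4f-cre mice with the toxin receptor. A monocyte library titled as a pool may hold several mice.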

How the data were processed

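Libraries were strand-specific (dUTP) and made from RNA captured on oligo(dT) beads, per the labels' protocols. The authors deposited TPM per gene, made with STAR and HOMER on mm10 per the submitters' processing notes. HOMER counted exons and kept 1 isoform per gene, per the file headers. The sources used here give no tool versions and do not state how reads matching several genes were handled or whether counting used strand. Exon lengths of Csf2rb2 and Csf3r differ between tables, so tests were run within a table.

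A gene entered the test where 2 or more libraries of its table reached 4 TPM, on log2(TPM + 1) in limma 3.58.1 (R 4.3.3), one model per table over all its groups, with p adjusted over all tested genes. Errors beside log2 differences are standard errors. The script was tested on simulated data. Alternatives were a pseudocount of 0.25, no filter, quantile normalization, limma-voom on reads recovered from the TPM (whole within 0.1 read for 100% of values up to 20 reads, in all 104 libraries), no fold minimum, a replicate block, beta chains added, and each library left out. The genes named beside the members are, by list and comparison, up to 3 called genes with the largest difference. The genes most alike by correlation are named too, and further GM-CSF-responsive genes where Notch was blocked. Ligands and partners are named in some comparisons only. Members and lists were chosen with earlier results of these data known. Counts over the listed transcription factors and some of their members are not reported here. Promoters came from RefSeq and coding sequences from GENCODE vM21. The promoters of Csf1r and Csf2rb and the proteins were not used here.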

Additional observations from a re-analysis of the deposited data

Results flagged for a closer look

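In 18 cases a member responded differently in 2 genotypes, times or experiments by the test of the difference itself (limma, adjusted p below 0.05). Between Smad4 KO and control BMDMs, the difference of the TGF-beta responses was -0.23 on the log2 scale for Csf1r. The response to TGF-beta added to DLL4 differed by -0.34 for Csf2ra, -0.30 for Csf1r, -0.81 for Csf2rb2 and -0.70 for Csf2rb, all smaller in the KO cells. By the same threshold, 6.52% of all tested genes differed in the TGF-beta response and 16.9% in the response to TGF-beta added to DLL4.

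Between 72 and 24 h in C57BL/6J BMDMs, in tests chosen after the data were seen, the DLL4 response differed by -0.37 for Csf1r and -1.19 for Csf3r. The response to TGF-beta added to DLL4 differed by -0.51 for Csf2ra, -0.79 for Csf1r, 0.44 for Csf3r, -1.35 for Csf2rb2 and -0.84 for Csf2rb. The response to DMHCA on DLL4 and TGF-beta differed by 0.38 for Csf1r, 0.60 for Csf2rb2 and 0.28 for Csf2rb. By the same threshold, 11.5%, 28.9% and 16.6% of all tested genes differed in these tests, in the order given.

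Between LY411575 and the antibodies to DLL1 and DLL4, the responses differed by 0.36 for Csf2ra, -0.44 for Csf1r and 0.51 for Csf3r. Here 13.5% of all tested genes differed by the same threshold. With 1 library left out at a time, 12 of the 18 kept an adjusted p below 0.05 throughout and 6 did not. These were Csf1r with TGF-beta (adjusted p up to 0.184) and Csf2ra with TGF-beta on DLL4 (0.055) between genotypes, Csf3r with TGF-beta on DLL4 (0.163) and Csf2rb with DMHCA (0.164) between times, and Csf2ra (0.117) and Csf3r (0.18) between the 2 ways of blocking Notch. In 10 member groups of 4 libraries examined, 0 held a library far from the others.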

How the results depend on the processing

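Members' calls by table were 7 in refilling, 2 in the Nr1h3 table, 0 with STAB2, 0 in Smad4 Kupffer cells, 4 in Smad4 BMDMs, 4 in C57BL/6J BMDMs, 0 with Notch blocked and 3 in marrow monocytes. Without the 2-fold minimum they were 17, 8, 0, 2, 38, 33, 10 and 13 in that order. At that looser threshold 0.00946 to 81.3% of all tested genes passed, depending on the comparison. Smad4 Kupffer cells gave 1 call with a pseudocount of 0.25. Leaving out each library in turn gave 5 to 7, 2 to 2, 0 to 0, 0 to 1, 3 to 4, 4 to 5, 0 to 0 and 3 to 4. Of the recomputed member results 4870 had the same call, 16 lost and 9 gained one, and 0 reversed; added to those named with their results, the Csf2rb difference between times in the TGF-beta response gained a call with the beta chains added (-1.06). A replicate block changed 0 of 174 member results: the labels do not say that a number marks a mouse or batch, and the median correlation of deviations was 0.01 to 0.02 by table and 0.14 over the STAB2 fractions (4 of 6 pairs over 0.1), whose shared identifiers may be mice, and its calls were 2, 0, 4, 4, 0 and 3 in the Nr1h3, STAB2, Smad4 BMDM, C57BL/6J, Notch and marrow tables. Groups of 2 limit every estimate of spread. In the main fit, genes that reached 4 TPM in fewer than 2 libraries of a table were not tested. Reads shared by the beta chains cannot be assigned from these values.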
